A study of Mus musculus with 3 samples.

Results

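The 33 genes described here carry sugar through glycolysis or belong to the transcriptional response to low oxygen, and they were followed across 4 populations of migratory dendritic cells from mouse ear-draining lymph nodes. They were chosen as a list of glycolysis enzymes and carriers, regulators and targets of hypoxia-inducible factor (HIF), and the cytokine gene Mif. The rule itself used no measured value, but earlier results of these data were known when the list was made. All 33 were among the 22548 genes of the matrix. Together they held 227130 of the 80355067 unique molecular identifiers (UMIs, single captured mRNA molecules) of the kept cells, or 0.283%, and Gapdh alone gave 33.8% of these. Of the 33 genes, 32 had at least 100 UMIs in the kept cells, and Pfkm had 39.

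The mice were SiglechiCreTg/0 ROSA26LoxP-STOP-LoxP-RFP Tnfsf4KI/+ and had been given MC903, a vitamin D analogue that inflames skin, on days 0, 2 and 4. On day 5, migratory dendritic cells that were neither Langerhans cells nor type 1 conventional dendritic cells (cDC1) were sorted by a B220-, MHCII high, CD11c low to intermediate, XCR1- and CD326- gate. RFP stays on in any cell whose ancestors once had Cre activity driven from Siglech, and BFP is the other reporter, which the labels place with the Tnfsf4 (OX40L) knock-in. Values below are given for the 4 populations in this order: cells with both reporters (BFP+RFP+), cells with RFP alone (BFP-RFP+), cells with BFP alone (BFP+RFP-), and cells with neither (BFP-RFP-). All of them share the genotype and the MC903 treatment, and no untreated mice were analysed here. The sources used here do not state the age, sex or number of mice, so the cells of a population may come from pooled animals. Each population carried its own hashtag antibody, and surface CD11b, CD172a, CD301b and CD8a were read in all cells with further antibody tags. All cells were pooled and captured together, which leaves 1 sample a population, so that no difference was tested, and intervals cover counting error only.

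Glycolysis splits glucose into pyruvate in the cytosol, and lactate dehydrogenase can turn pyruvate into lactate, which leaves the cell through monocarboxylate carriers. When oxygen is scarce, prolyl hydroxylases stop marking HIF-1 alpha for destruction, and the stabilised factor raises the transcription of glucose carriers, glycolysis enzymes, and genes that restrain mitochondrial pyruvate use. In dendritic cells, activating signals are also known to raise glycolysis, and HIF-1 alpha can be induced by inflammatory signals without a lack of oxygen.

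Promoter sequences show how widely the letters of the HIF core motif are spread among these genes. The motif was searched as ACGTG or GCGTG on both strands, so that it reads CACGT or CACGC on the other strand, in the 250 bases before each RefSeq start (GRCm38.p6, an older build than the GRCm39 named for the counts). The palindrome CACGTG holds a match on both strands. RefSeq promoters were at hand for 30 of the 33 genes, the others being Slc2a3, Ndrg1 and Bhlhe40. The motif was present before 36 of 48 starts of these genes (75.0%) and in 27 of the 30 genes, against 12679 of 32851 starts of all genes (38.6%). The windows of these genes also held more CpG pairs, with a median of 14 against 6 over all starts. A match is a description of letters, not a binding site. Promoters are printed for the genes on which the results below turn, 5′ to 3′ on the gene's strand, with matches in capitals. These are P4ha1, lower in BFP+ cells in both RFP states, at chr10:59323046-59323295 (+ strand), Hk2 at chr6:82774455-82774704 (- strand) and Pdk1 at chr2:71872974-71873223 (+ strand), which differed with antibody tags, Pfkp at chr13:6648772-6649021 (- strand), past the fold in all populations by the sum of 9 HIF targets though not by every choice of split, and Pfkfb3 at chr2:11553930-11554179 (- strand), which was lowest in cells with both reporters and highest in cells with neither, where Gapdh had its highest and lowest level.
P4ha1: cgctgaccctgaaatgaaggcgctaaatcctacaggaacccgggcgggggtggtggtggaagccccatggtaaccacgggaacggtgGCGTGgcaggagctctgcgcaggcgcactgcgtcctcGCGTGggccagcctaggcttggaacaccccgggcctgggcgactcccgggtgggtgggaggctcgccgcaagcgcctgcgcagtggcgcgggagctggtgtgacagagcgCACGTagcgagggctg
Hk2: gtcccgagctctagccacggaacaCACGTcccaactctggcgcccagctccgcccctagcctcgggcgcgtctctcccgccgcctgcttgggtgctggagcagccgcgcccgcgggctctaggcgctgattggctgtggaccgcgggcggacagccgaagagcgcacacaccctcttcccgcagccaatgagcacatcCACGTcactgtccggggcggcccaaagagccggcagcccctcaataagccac
Pdk1: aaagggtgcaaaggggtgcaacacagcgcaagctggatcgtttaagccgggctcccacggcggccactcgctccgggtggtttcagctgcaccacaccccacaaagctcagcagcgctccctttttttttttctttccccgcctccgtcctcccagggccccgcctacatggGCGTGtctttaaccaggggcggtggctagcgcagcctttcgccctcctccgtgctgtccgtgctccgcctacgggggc
Pfkp: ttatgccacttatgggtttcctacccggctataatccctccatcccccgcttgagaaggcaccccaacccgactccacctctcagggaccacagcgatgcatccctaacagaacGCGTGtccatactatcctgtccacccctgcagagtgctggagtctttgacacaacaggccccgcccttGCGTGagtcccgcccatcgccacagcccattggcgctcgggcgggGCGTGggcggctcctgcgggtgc
Pfkfb3: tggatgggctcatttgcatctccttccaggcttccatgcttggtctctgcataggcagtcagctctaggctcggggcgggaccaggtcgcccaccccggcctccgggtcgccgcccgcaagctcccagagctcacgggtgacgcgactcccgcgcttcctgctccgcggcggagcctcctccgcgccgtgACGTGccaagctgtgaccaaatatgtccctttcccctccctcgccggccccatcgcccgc
P4ha1 and Pfkp held 3 matches each in this window, Hk2 held 2, and Pdk1 and Pfkfb3 held 1 each. Both of the 2 Pfkfb3 starts held a match, and the start that is not printed held 3. Of the 2 Pdk1 starts only the printed start held a match.

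Of 6079 barcodes, 5380 (88.5%) had at least 80% of their hashtag UMIs from 1 hashtag, and 5023 of these were kept after filters on depth and mitochondrial UMIs. Per population, 842, 982, 2185 and 1014 cells held 14140272, 15746616, 35590897 and 14877282 mRNA UMIs, with medians of 13884 to 15182 UMIs a cell, and no barcode was shared. Migratory dendritic cell genes were high in every population, for example Ccr7 at 1312 to 1516 UMIs per 1000000 mRNA UMIs (CPM), while Xcr1 of cDC1 and Cd207 of Langerhans cells stayed at or below 0.202 CPM. Other genes of these marker lists were not absent: Wdfy4 of the cDC1 list lay at 20.3 to 83.3 CPM, Cadm1 at 9.81 to 38.5 and Epcam of the Langerhans cell list at 1.34 to 3.62. The summed 5 cDC1 markers lay at 35.6 to 125 CPM, highest in BFP-RFP+ cells. Siglech reached 1.59 CPM in BFP-RFP+ cells and at most 0.0707 elsewhere, and Krt14 was at 0. The summed 6 macrophage markers lay at 24.0 to 170.1 CPM and the 5 monocyte markers at 94.5 to 385 CPM, both higher in the BFP- populations. Most of the monocyte sum was Lyz2, at 74.3 to 348 CPM. Vcan of that list ran the other way, at 8.77 and 9.44 CPM in the BFP+ and 4.06 and 5.71 in the BFP- populations. Barcodes with at least 3 UMIs of C1q, Cd3 or B cell genes, called marker barcodes below, made up 8.19% to 9.78% of each population. Cells with at least 3 UMIs of the 12 proliferation genes made up 7.79% to 15.6%, most in BFP+RFP+ cells. The summed level of these genes was instead highest in BFP-RFP+ cells, at 127 CPM against 103 in BFP+RFP+ cells, where Tyms alone gave 37.0 CPM and Mki67 was lowest, at 10.3.

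Levels were first compared along the pathway, as CPM with counts from the 3′ end of transcripts. The glucose carriers were scarce. Slc2a1, the widely expressed carrier GLUT1, stood at 6.44, 9.53, 6.32 and 6.92 CPM, highest in BFP-RFP+ cells. Slc2a3, the high-affinity carrier GLUT3, stood at 7.14, 13.1, 12.8 and 14.0 CPM, so that BFP+RFP+ cells were low and the other populations alike within counting error. Its 5 richest cells held 14.3% of its 972 UMIs. Hexokinases trap glucose as glucose 6-phosphate. Hk1, the housekeeping form, lay at 17.6 to 22.4 CPM, and Hk2, the inducible form, at 4.95, 6.54, 3.51 and 4.91 CPM, lowest in BFP+RFP- cells.

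In upper glycolysis the most divergent abundant gene was Pfkfb3, whose enzyme makes fructose 2,6-bisphosphate, the main activator of phosphofructokinase. Pfkfb3 stood at 260.04, 341, 334 and 433 CPM, with intervals of 252 to 269 in BFP+RFP+ cells and 422 to 444 in BFP-RFP- cells. Cells with neither reporter were thus highest, cells with both lowest, and both single-reporter populations in between and within counting error of each other. Pfkp, the platelet-type phosphofructokinase subunit, stood at 17.3, 35.6, 25.4 and 31.5 CPM, 2.05-fold apart from lowest to highest. Of the other subunits, Pfkl lay at 9.19 to 12.4 CPM and Pfkm at 0.354 to 0.826, the latter too sparse to compare. Gpi1, which converts glucose 6-phosphate to fructose 6-phosphate, hardly varied, at 112 to 118 CPM. Pfkfb4, another maker of fructose 2,6-bisphosphate, lay at 3.89 to 5.51 CPM. The aldolases split the phosphorylated hexose: Aldoa lay at 129 to 158 CPM and Aldoc at 0.566, 2.22, 1.07 and 1.68. Triose phosphate isomerase, Tpi1, stood at 33.6, 45.3, 46.8 and 51.7 CPM, again lowest in cells with both reporters.

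In lower glycolysis Gapdh, which oxidises glyceraldehyde 3-phosphate, was highest where Pfkfb3 was lowest and lowest where Pfkfb3 was highest. Gapdh stood at 1158, 1064, 905 and 775 CPM, so that every pair of populations differed by more than the counting intervals. Pgk1, the first ATP-forming enzyme of the pathway, stood at 79.9, 101, 98.8 and 97.2 CPM, low in BFP+RFP+ cells only. Pgam1 lay at 54.8 to 63.2 CPM. Pkm, pyruvate kinase, stood at 117, 144, 119.5 and 122 CPM, highest in BFP-RFP+ cells. Eno1, an enolase, stood at 19.6, 31.9, 24.1 and 27.8 CPM, but its near-identical copy Eno1b held 62 UMIs and reads shared between them may have been lost, so Eno1 is uncertain. Ldha, which makes lactate, stood at 83.0, 120.03, 82.1 and 83.6 CPM, and only BFP-RFP+ cells stood apart. Slc16a3, the lactate exporter MCT4, lay at 1.91 to 3.81 CPM.

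Of the HIF regulators, Hif1a, the oxygen-regulated subunit, lay at 55.2 to 63.5 CPM. Egln1, its main prolyl hydroxylase, lay at 22.0 to 27.2 CPM, lowest in BFP-RFP+ and highest in BFP+RFP+ cells. Egln3, a hydroxylase that HIF itself induces, stood at 2.26, 1.91, 1.83 and 1.14 CPM, 1.98-fold apart on 144 UMIs in all. Among the targets, Bhlhe40, a transcriptional repressor, stood at 215, 160.1, 167 and 148 CPM, highest in cells with both reporters. Ndrg1, a stress-response gene, lay at 170.2 to 196 CPM and Mxi1, a MYC antagonist, at 137 to 164, both also highest there, though Ndrg1 in BFP+RFP- cells was within counting error of it. P4ha1, a collagen prolyl hydroxylase subunit, stood at 10.5, 18.6, 11.2 and 16.1 CPM, low in both BFP+ populations. Kdm3a, a histone demethylase, stood at 19.7, 23.8, 27.6 and 27.6 CPM, and Ddit4, an inhibitor of mTORC1, at 8.42, 8.06, 12.0 and 11.0, both low in the RFP+ populations. Vegfa, an angiogenic factor, lay at 3.29 to 5.85 CPM, Bnip3, a mitophagy receptor, at 3.85 to 5.58, and Pdk1, which blocks pyruvate dehydrogenase, at 4.24 to 5.14. Mif, a cytokine and a HIF target, stood at 71.4, 121, 77.2 and 76.4 CPM, high in BFP-RFP+ cells only.

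**Figure D1:**
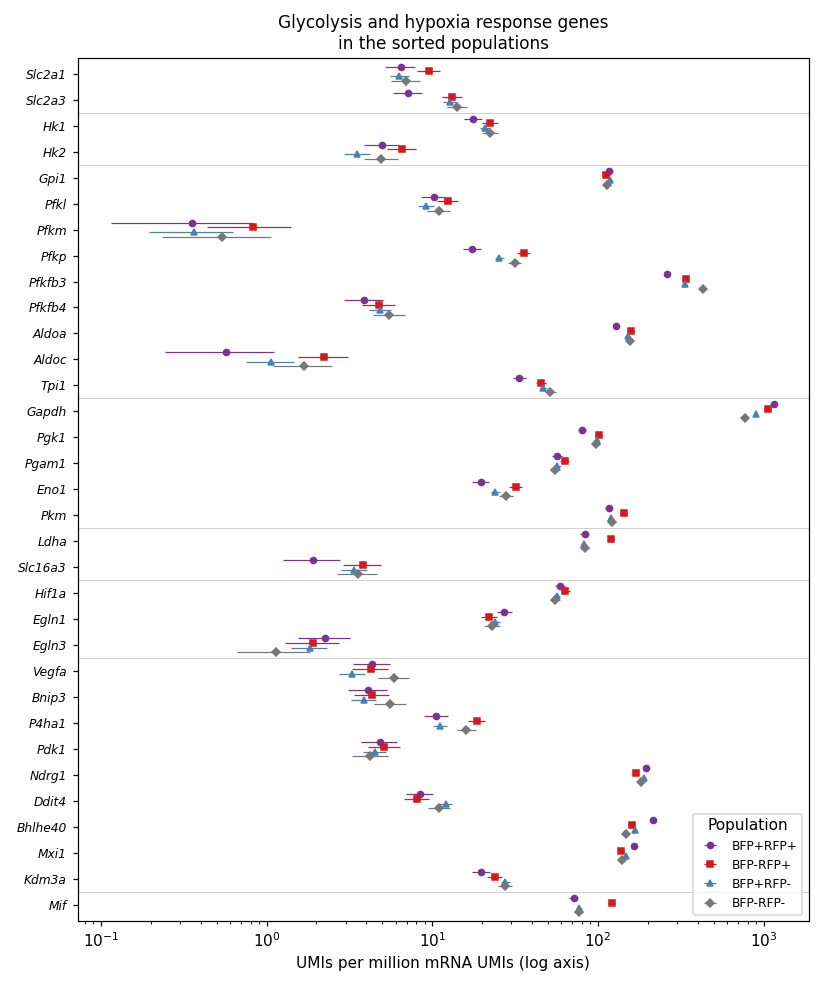
Level of each gene in UMIs per 1000000 mRNA UMIs (horizontal log axis) in the 4 sorted populations. Points are summed cells of 1 sample, lines are exact Poisson 95% intervals for counting error, and grey lines separate the roles. Pfkfb3 runs from 260.04 in BFP+RFP+ to 433 in BFP-RFP- cells, and Gapdh from 1158 down to 775.

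What goes with the reporter of the Tnfsf4 allele was asked by setting BFP+ against BFP- cells within each RFP state. P4ha1 was lower in BFP+ cells in both, Gapdh was higher by a small amount, and among RFP+ cells 6 further genes were lower past the fold. A gene counts here as past the fold when its log2 ratio is at least 0.5 in size (1.41-fold) with at least 100 UMIs in both populations together. Of 29 genes tested within RFP+, 7 were past the fold lower in BFP+ cells, against 9.31% of all 9463 genes tested, and 0 were higher, against 2.53%. Within RFP-, 3 of 30 were lower, against 5.39% of 10237 genes, and 0 were higher, against 2.58%. The median ratio was -0.29 within RFP+, where it was -0.09 over all genes, and -0.04 within RFP-, where it was -0.07 over all genes.

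P4ha1 was the only gene of the 29 past the fold in both RFP states, at -0.82 (95% interval -1.11 to -0.53) and -0.52 (-0.76 to -0.29), against 2.71% of all genes for this direction. In marker barcodes with Cd3 genes P4ha1 stood at 39.1 CPM against 11.3 in cells without markers. Barcodes with Cd3 genes made up 4.75%, 5.60%, 5.08% and 3.85% of the populations. Cells without markers, here and below, are the 4147 that were neither marker barcodes nor cells with proliferation genes. Without marker barcodes and cells with proliferation genes, P4ha1 stood at -1.03 and -0.64. With TMM or DESeq2 size factors it stood at -0.44 and -0.45 within RFP-, under the fold.

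Pfkfb3 was lower in BFP+ cells by nearly the same amount in both states, at -0.39 (-0.45 to -0.33) and -0.38 (-0.42 to -0.33), which is under the fold. Its level in marker barcodes was lower, for example 162 CPM in Cd3 barcodes against 368 in cells without markers. Gapdh was higher by 0.12 (0.09 to 0.15) and 0.22 (0.19 to 0.25), and Bhlhe40 by 0.43 (0.35 to 0.51) and 0.17 (0.10 to 0.24).

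The other 6 genes past the fold within RFP+ were Pfkp at -1.04 (-1.26 to -0.82), Slc2a3 at -0.88 (-1.24 to -0.53), Mif at -0.76 (-0.87 to -0.65), Eno1 at -0.70 (-0.92 to -0.49), Slc2a1 at -0.56 (-0.96 to -0.18) and Ldha at -0.53 (-0.64 to -0.43). They span uptake, the committed step, the end of the pathway and the cytokine. Within RFP- the same genes stood at -0.31, -0.14, 0.02, -0.21, -0.13 and -0.03, and whether the states differ was not tested. Without marker barcodes, Slc2a1 and Ldha within RFP+ stood under the fold at -0.39 and -0.45, while Slc2a3 stood at -1.23. Mif, Eno1 and Ldha were far higher in Cd3 barcodes, with Ldha at 292 CPM there against 70.9 in cells without markers, Mif at 283 against 64.5 and Eno1 at 80.4 against 21.2. Summed T and NK cell markers stood at 71.5 CPM in BFP+RFP+ and 107 CPM in BFP-RFP+ cells. Their part in the ratios was not tested beyond the values without marker barcodes. With each cell given the same weight, Slc2a1 stood at -0.24, Eno1 at -0.44 and Ldha at -0.44, all under the fold.

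Within RFP-, Vegfa was lower at -0.83 (-1.24 to -0.41) and Bnip3 at -0.54 (-0.94 to -0.12), beside P4ha1. Vegfa is carried by few molecules, with 14.5% of its UMIs in its 5 richest cells, and stood at 22.4 CPM in barcodes with C1q genes against 3.83 in cells without markers. Macrophage markers were also lower in BFP+ than BFP- cells here. Without marker barcodes Vegfa stood at -0.68, and with each cell given the same weight Bnip3 stood at -0.33, under the fold.

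Among other genes of the pathway, 0 of 16 glycolysis and glucose genes tested in both states and 1 of 18 HIF axis genes were past the fold in both. The latter was Tfrc, the transferrin receptor, lower in BFP+ cells at -1.18 (-1.80 to -0.61) and -0.56 (-1.06 to -0.04). None of 24 oxidative phosphorylation genes and none of 16 citrate cycle genes was past the fold in both states. Over all genes 2.71% were lower and 0.965% higher in both, and at such shares these small counts show little. The medians of the oxidative phosphorylation and citrate cycle genes were -0.12 and -0.18 within RFP+ and -0.01 and -0.11 within RFP-.

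**Figure D2:**
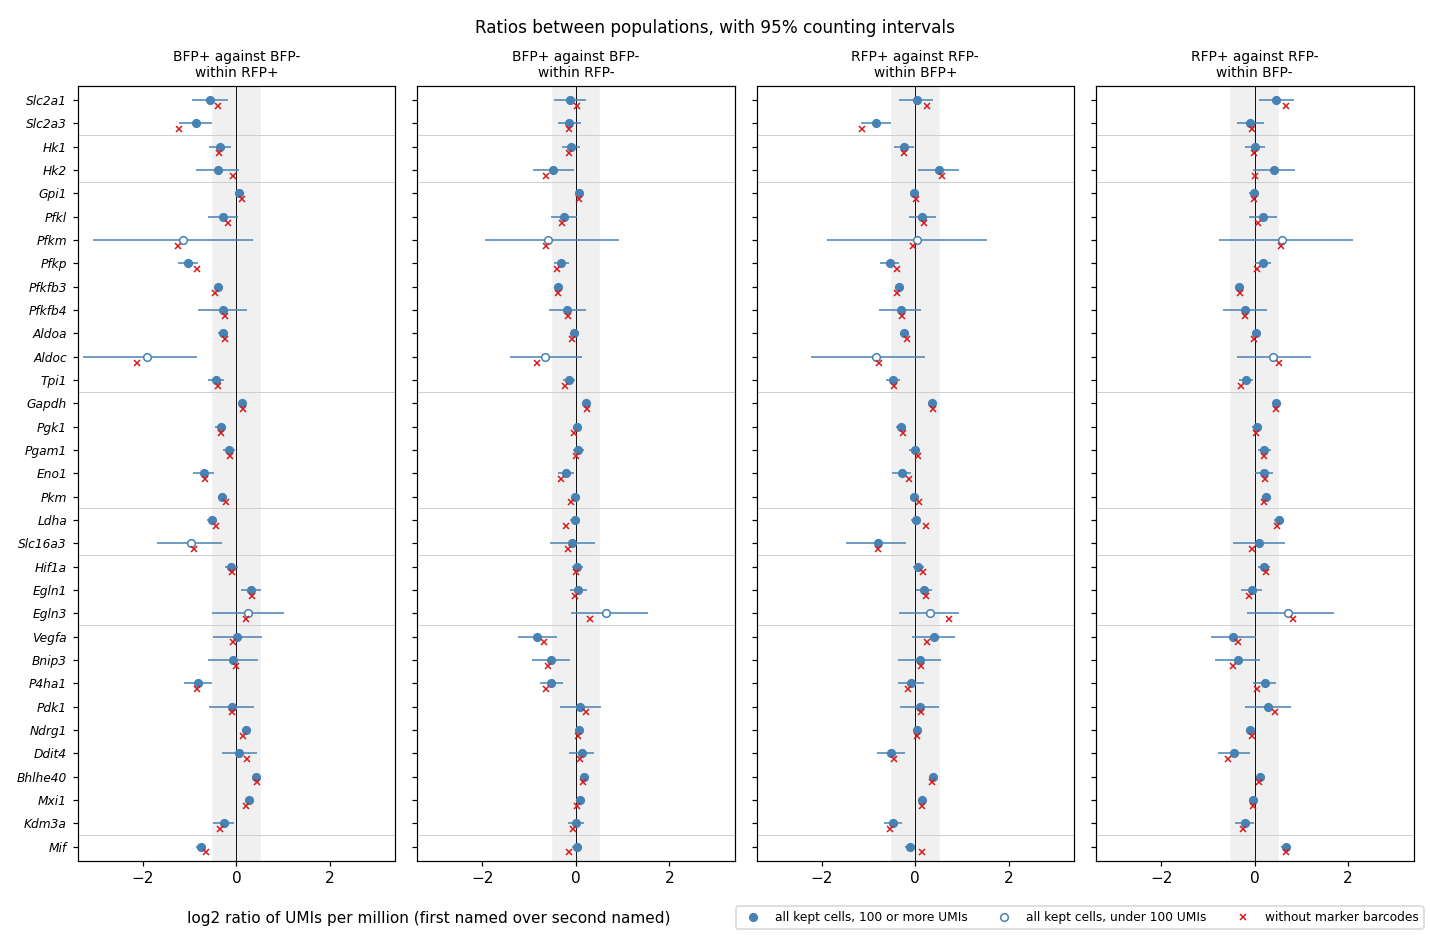
Log2 ratio of CPM for each gene in the 4 comparisons, with 95% intervals for counting error. Open circles mark genes with under 100 UMIs, crosses the value without marker barcodes, and the grey band is the range under the fold of 0.5. P4ha1 lies left of the band in both comparisons of BFP, at -0.82 and -0.52.

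What goes with a history of Siglech-driven Cre was asked by setting RFP+ against RFP- cells within each BFP state. This uses the same 4 populations as the comparison of BFP, so the ratios of both comparisons are not independent. Gapdh was higher and Pfkfb3 lower in RFP+ cells in both BFP states, but no gene of the 30 tested was past the fold in the same direction in both, against 2.2% of all genes higher and 1.91% lower. Within BFP+, 4 of 30 genes were lower past the fold, against 6.79% of 10139 genes, and 0 were higher, against 4.34%. Within BFP-, 2 of 30 were higher, against 5.21% of 9612 genes, and 0 were lower, against 3.91%. Median ratios were -0.03 and 0.08, and -0.03 and -0.01 over all genes.

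Gapdh was higher by 0.36 (0.33 to 0.38) within BFP+ and 0.46 (0.42 to 0.49) within BFP-. Pfkfb3 was lower at -0.36 (-0.41 to -0.31) and -0.35 (-0.40 to -0.29). Gapdh was thus higher and Pfkfb3 lower with each reporter in either state of the other, and without marker barcodes Gapdh still ran 1174, 1059, 907 and 774 CPM and Pfkfb3 265, 363, 349.7 and 454.

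Within BFP+ the genes lower past the fold were Slc2a3 at -0.83 (-1.17 to -0.53), Slc16a3 at -0.80 (-1.48 to -0.21), Pfkp at -0.55 (-0.76 to -0.35) and Ddit4 at -0.51 (-0.82 to -0.22). Within BFP- they stood at -0.10, 0.10, 0.18 and -0.45. Without marker barcodes Pfkp within BFP+ stood at -0.39 and Ddit4 at -0.45, both under the fold. Hk2 was higher in RFP+ cells by 0.4997 (0.05 to 0.93), just under the fold, and by 0.41 (-0.03 to 0.87) within BFP-. Without marker barcodes Hk2 stood at 0.58 within BFP+ and near 0 within BFP-, where 4.83 and 4.80 CPM faced each other.

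Within BFP- the genes higher past the fold were Mif at 0.66 (0.56 to 0.77) and Ldha at 0.52 (0.42 to 0.63). Within BFP+ they stood at -0.11 and 0.02. Without marker barcodes Mif stayed at 0.66 within BFP-, and Ldha stood at 0.48, just under the fold. Of other pathway genes, Hilpda, a HIF-induced regulator of lipid droplets, was past the fold higher in both BFP states, at 1.04 (0.78 to 1.30) and 0.66 (0.36 to 0.97). Slc16a1, the lactate carrier MCT1, was lower in both at -1.04 (-1.77 to -0.41) and -0.67 (-1.28 to -0.09). They were 1 of 18 HIF axis genes and 1 of 17 other glycolysis genes tested in both states. No oxidative phosphorylation or citrate cycle gene passed the fold in both. Over all genes 2.2% were higher and 1.91% lower in both.

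The antibody tags divide each population further, by surface CD11b and CD172a, found on type 2 dendritic cells and myeloid cells, by CD301b, a lectin of dermal dendritic cells, and by CD8a. Within each population, cells over the upper tercile of a tag's UMIs were set against cells at or under the lower tercile. The mRNA of the tagged protein went with its tag in every population: Mgl2 of CD301b ran at 4.76 to 7.55 CPM in low and 13.9 to 94.2 in high cells, Sirpa of CD172a at 16.4 to 46.2 against 80.3 to 196, Cd8a at 1.43 to 3.24 against 43.3 to 75.5, and Itgam of CD11b at 0 against 2.51 to 5.79. High cells were also deeper for every tag, with medians of 16204 to 19284 UMIs against 10681 to 13605. They held fewer marker barcodes in every population for every tag, where low cells held up to 17.6%, and more cells with proliferation genes, at 9.76% to 23.8% against 2.93% to 13.4%.

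Slc2a3 was higher in CD172a-high and CD301b-high cells and lower in CD8a-high and CD11b-high cells in all 4 populations. Hk2 was higher in CD11b-high cells, Pdk1 was lower with CD11b, CD172a and CD301b, and no gene passed the fold in 4 of 4 populations with CD8a. For CD11b, 1 of 30 genes was past the fold higher in 4 of 4 populations, against 2.92% of all genes, and 1 lower, against 3.21%. For CD172a there was 1 in each direction of 30, against 2.21% and 4.08%, and for CD301b 1 in each of 31, against 0.508% and 2.34%. For CD8a there were 0 of 30 in either direction, against 0.951% and 2.07%.

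Slc2a3 in CD301b-low cells stood at 2.49, 5.78, 9.45 and 6.80 CPM, and in CD301b-high cells at 12.7, 20.03, 16.4 and 16.6. Every high value lay above every low value, with ratios of 2.29, 1.77, 0.79 and 1.27. With CD172a it stood at 5.18, 6.13, 9.41 and 7.42 CPM in low and 10.4, 20.4, 17.6 and 21.7 CPM in high cells, again without overlap, with ratios of 0.97, 1.71, 0.90 and 1.53. The lowest bound of these 8 intervals was 0.23, in BFP+RFP+ cells with CD172a. Without marker barcodes the mean ratio over the populations stood at 1.85 for CD301b and 1.64 for CD172a, against 1.53 and 1.28 with them. With terciles taken within 5 strata of depth the mean for CD301b was 1.73, but Slc2a3 was no longer past the fold in 4 of 4 populations, nor was it without marker barcodes and cells with proliferation genes. With CD8a, Slc2a3 was lower at -1.84 and -1.37 in the RFP+ populations, -0.64 in BFP+RFP- cells and -0.18 (-0.69 to 0.34) in BFP-RFP- cells. With CD11b it was lower at -1.26, -0.50, -0.56 and -0.84, where BFP-RFP+ cells fell just short of the fold.

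Slc2a1, the other carrier, had ratios below 0 in all populations with CD172a and CD301b, where those of Slc2a3 were above 0. Its ratio with CD172a was -0.90, -0.35, -0.83 and -0.32, and with CD301b -0.46, -0.18, -0.31 and -0.45. With CD8a both carriers were below 0 in 4 of 4 populations, Slc2a1 at -0.42, -0.64, -0.22 and -0.18. Slc2a1 had 27.6% of its UMIs in marker barcodes, at 23.4 CPM in Cd3 barcodes against 5.68 in cells without markers. Without marker barcodes its CD172a ratios stood at -0.35, -0.57, -0.60 and -0.43, and its CD301b ratios at -0.30, -0.07, -0.19 and -0.26. Its CD8a ratios then stood at -0.19, -0.31, -0.33 and 0.37, so that the sign turned in BFP-RFP- cells.

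Hk2 in CD11b-low cells stood at 2.01, 5.83, 2.15 and 2.36 CPM and in CD11b-high cells at 7.03, 8.80, 4.92 and 8.43. Low cells of BFP-RFP+ were an exception, above the high cells of BFP+RFP-. The ratios were 1.73 (0.70 to 3.11), 0.58 (-0.11 to 1.34), 1.17 (0.46 to 1.99) and 1.78 (0.84 to 2.99). Without marker barcodes the BFP-RFP+ ratio was -0.26, while the other 3 were 1.47, 1.01 and 1.59. The mean ratio was 1.32, and it stood at 1.09 with HTODemux singlets and 1.36 within 5 strata of depth, where Hk2 was no longer past the fold in 4 of 4 populations either.

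Pdk1 in CD172a-low cells stood at 8.92, 6.60, 9.30 and 7.17 CPM and in CD172a-high cells at 4.14, 3.34, 2.79 and 2.65. Ratios with CD172a were -1.10, -0.97, -1.73 and -1.42, with CD301b -0.94, -1.11, -0.68 and -0.80, and with CD11b -1.21, -0.67, -0.9999 and -1.02. Of its UMIs, 33.9% lay in marker barcodes, the largest share of the 33 genes, and it stood at 24.1 CPM in Cd3 barcodes against 3.41 in cells without markers. With marker barcodes left out, the mean Pdk1 ratio stood at -0.10 for CD11b, -0.62 for CD172a and -0.43 for CD301b, and no tag had it past the fold in 4 of 4 populations.

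The HIF targets did not go 1 way with CD11b. Ddit4 stood at 6.54, 9.33, 5.70 and 5.66 CPM in low and 11.4, 8.96, 20.95 and 18.3 CPM in high cells, so that BFP-RFP+ cells alone showed no gap. Without marker barcodes its ratios were 1.08, 0.73, 2.34 and 1.90, past the fold in 4 of 4. Vegfa had ratios of 1.07, 0.03, 2.73 and 1.51, and Slc16a3 of 2.22, 0.06, 1.44 and 2.18, on as few as 2 UMIs in the low cells of BFP+RFP+. Bhlhe40 was higher in all 4 populations at 0.23, 0.42, 0.79 and 0.98. Besides Pdk1, P4ha1 and Kdm3a had mean ratios below 0, at -0.27 and -0.26. Without marker barcodes the mean stood at 0.03 for P4ha1 and -0.10 for Pdk1, while Kdm3a stayed at -0.25. Ndrg1 was higher with CD172a at 0.28, 0.56, 0.64 and 1.17 and with CD301b at 0.30, 0.63, 0.45 and 0.96.

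By sign alone, 14 of 30 genes were above 0 with CD11b in 4 of 4 populations, where 16.3% of all genes were, and 2 were below 0, where 26.9% were. These 14 include Gapdh at 0.08, 0.23, 0.44 and 0.58, Pkm at 0.45, 0.21, 0.35 and 0.69, and Pgam1 at 0.16, 0.30, 0.22 and 0.42. Gapdh and Pkm were past the fold in BFP-RFP- cells only. Without marker barcodes Pkm stood at 0.47, 0.45, 0.57 and 0.93, and Ldha at 0.50, 0.42, 0.81 and 1.30. Eno1 then stood at 0.70, 0.76, 0.49 and 1.27, while Gapdh hardly moved, at 0.09, 0.20, 0.44 and 0.65. Pfkfb3 went the other way, at -0.07, -0.42, -0.15 and -0.66. The median of the mean ratios was 0.20 with CD11b, where it was -0.08 over all genes, and 12 of 24 oxidative phosphorylation genes were above 0 in 4 of 4 as well. With CD8a, 11 of 30 genes were below 0 in 4 of 4, where 26.5% of all genes were. Tpi1 was one of them at -0.91, -0.69, -0.51 and -0.36. Gapdh was the 1 gene above 0 in all populations, where 10.1% of all genes were, at 0.46, 0.56, 0.23 and 0.16.

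Few other pathway genes were past the fold with CD11b in 4 of 4 populations. Of 18 HIF axis genes 2 were higher, where 2.92% of all genes were, with a median over the 18 of -0.05. Hmox1, which degrades heme, stood at 3.02, 5.14, 3.84 and 2.38, and Car9, a carbonic anhydrase, at 1.38, 0.91, 0.53 and 1.05. Of 20 other glycolysis genes 1 was lower, where 3.21% of all genes were, with a median over the 20 of -0.13. This was Ldhb, the lactate dehydrogenase subunit of oxidative tissues, at -0.59, -0.96, -0.64 and -1.16. With CD172a, Hmox1 was higher in 4 of 4 and Tfrc lower, at means of 2.44 and -1.62, and of 16 citrate cycle genes Suclg2 was lower at a mean of -0.71. Over all genes 2.21% were higher and 4.08% lower in 4 of 4 with CD172a. No gene of these lists passed the fold in 4 of 4 populations with CD8a or CD301b. Over all genes 0.951% and 0.508% were higher there, and 2.07% and 2.34% lower. Ratios without marker barcodes were not taken for genes of these lists, here or in the reporter comparisons.

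**Figure D3:**
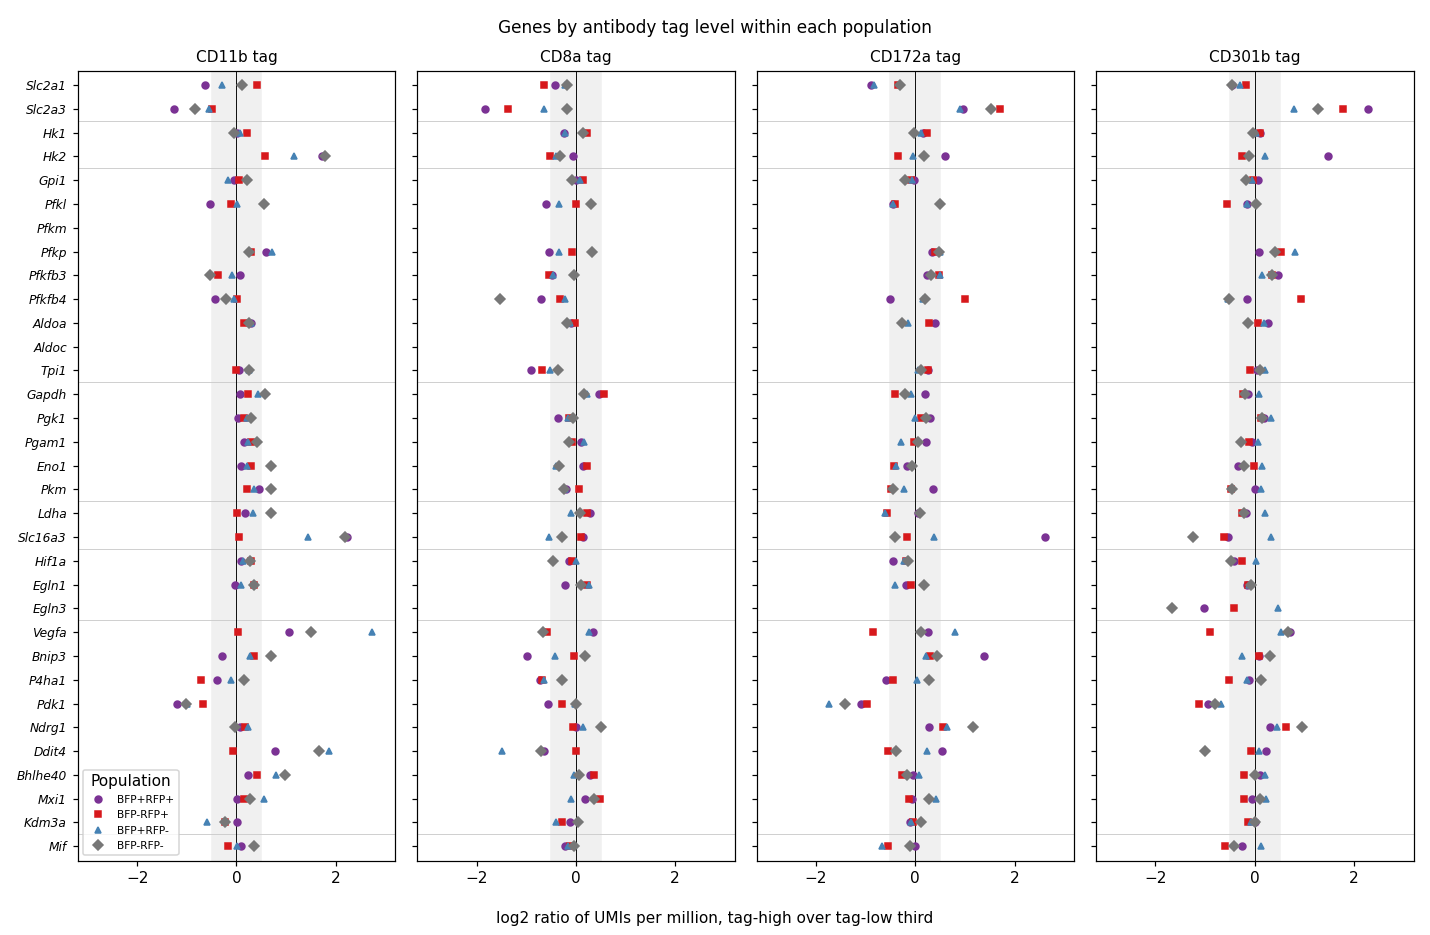
Log2 ratio of CPM in tag-high over tag-low cells for genes with at least 100 UMIs, 1 panel per tag and 1 symbol per population. The grey band is the range under the fold of 0.5. Slc2a3 lies right of the band for CD172a and CD301b in all populations, and Hk2 for CD11b.

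**Figure D4:**
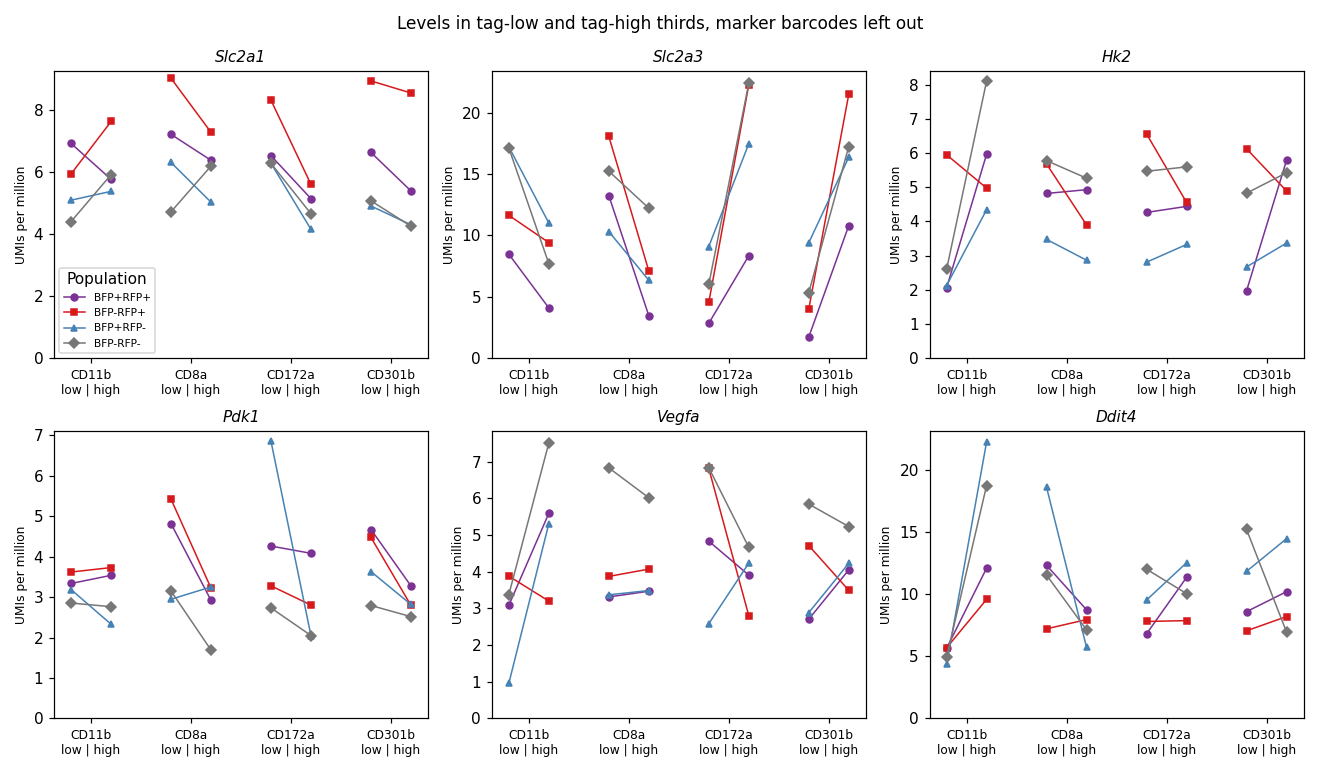
Level in CPM in tag-low (left end of each line) and tag-high cells (right end) for 6 genes, by tag and population, with marker barcodes left out and axes starting at 0. Slc2a3 lines rise for CD172a and CD301b in all 4 populations, Ddit4 lines rise for CD11b, and Pdk1 lines for CD11b are nearly level except in BFP+RFP- cells.

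Marker barcodes differed from the other cells in much of the list, and the values are given because 8.19% to 9.78% of each population consisted of them. The 245 barcodes with Cd3 genes had higher levels than cells without markers for Slc2a1, Hk2, Pfkp (70.5 against 22.5 CPM), Eno1, Ldha, Pdk1, P4ha1 and Mif. Their level of Pfkfb3 was lower. All of this also held for the 69 barcodes with C1q genes and the 142 with B cell genes. Pfkp stood at 46.2 CPM in C1q and 46.7 in B cell barcodes, and Pfkfb3 at 186 and 210 against 368. Mif stood at 198 and 230 against 64.5. Vegfa was higher in C1q barcodes, at 22.4 against 3.83 CPM, and in B cell barcodes, at 11.0, but not in Cd3 barcodes, at 3.14. Cells with proliferation genes had Ldha at 161 CPM, Mif at 143 and Pfkp at 41.7. Some of these cells were also marker barcodes. They were also deeper, with a median of 21168.5 UMIs against 14283 in cells that were neither. Whether a marker barcode is another cell type, a doublet or a dendritic cell with RNA from another cell was not tested.

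Finally, glycolysis genes and HIF targets were compared within the same cell. Per cell, the summed UMIs of the 20 glycolysis genes and of the 9 HIF targets, each per 10000 UMIs, had medians of 17.8 to 19.7 and 3.62 to 4.37. Their Pearson correlation was -0.16, -0.10, -0.04 and -0.12 over 842, 982, 2185 and 1014 cells, and Spearman's rho was -0.13, -0.06, -0.01 and -0.09. With Gapdh left out of the glycolysis sum Pearson's r was -0.10, -0.01, 0.06 and -0.04, so that its sign turned in BFP+RFP- cells. Both sums share the depth of the cell and the counts are sparse, so these weak values are given as a description only.

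Cells were also divided by the terciles of the HIF target sum within each population. Of 18 glycolysis genes with at least 100 UMIs, 4 were higher in high cells in 4 of 4 populations, where 20.1% of all genes were, and 8 were lower, where 28.4% were. The 2 genes past the fold in 4 of 4 populations were Hk2 at 1.71, 0.92, 1.65 and 1.53 and Pfkp at 1.11, 0.82, 1.13 and 0.60, against 4.89% of all genes in this direction. Slc2a3 followed at 1.65, 1.32, 2.04 and 0.41 and Pfkfb3 at 0.37, 0.11, 0.32 and 0.25. Aldoa at -0.53, -0.48, -0.27 and -0.41 and Gpi1 at -0.33, -0.24, -0.35 and -0.32 ran the other way. No gene was lower past the fold in 4 of 4 populations, against 1.55%.

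This split rests mostly on 3 genes, since Ndrg1, Bhlhe40 and Mxi1 held 89.0% of the 45513 UMIs of the 9 targets. With the other 6 targets (Vegfa, Bnip3, P4ha1, Pdk1, Ddit4 and Kdm3a) the median over the 18 genes stood at 0.31 in place of -0.17, with 11 genes above 0 in 4 of 4 populations and 2 below. Over all genes the median was 0.16 in place of -0.08, and 39.9% were above and 9.12% below 0 in 4 of 4 populations. Slc2a1, Slc2a3, Hk2 and Pfkp were then past the fold in 4 of 4, against 5.16% of all genes. Slc2a1 stood at 0.62, 1.03, 0.73 and 1.12, and Gapdh stayed below 0 at -0.34, -0.17, -0.28 and -0.22. This split by 6 targets was not repeated without marker barcodes or within strata of depth. In Cd3 barcodes P4ha1, Pdk1, Ddit4 and Kdm3a stood higher than in cells without markers, and Vegfa and Bnip3 lower. Slc2a1, Slc2a3, Hk2 and Pfkp were also higher in Cd3 barcodes, whose part in this split was not tested. Hk2 and Pfkp were past the fold in 4 of 4 populations with the sum of 9 and of 6 targets, and the Slc2a1 ratio depended on the set. With terciles of the 9 targets taken within 5 strata of depth, Pfkp was not, at 0.27 in BFP-RFP+ cells. Slc2a3 and Hk2 were past the fold there in 4 of 4, against 4.71% of all genes. With Bhlhe40 alone in place of the sum, Hk2 and Pfkp were past the fold in 4 of 4, against 3.19% of all genes. With Ndrg1 alone or Mxi1 alone 0 of the 18 genes were, against 2.71% and 2.39% of all genes. At such shares 0 of 18 shows little.

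**Figure D5:**
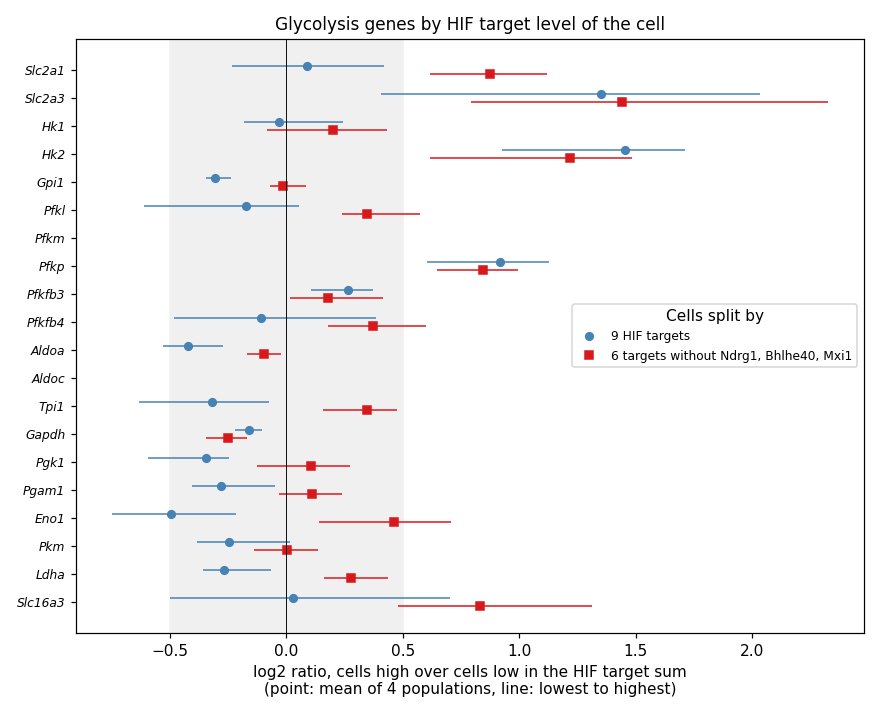
Log2 ratio of each glycolysis gene with at least 100 UMIs between cells high and low in the HIF target sum. Points are means over the 4 populations, lines run from the lowest to the highest population, and colours mark the sum of all 9 targets or of the 6 without Ndrg1, Bhlhe40 and Mxi1. Hk2 and Pfkp lie right of the grey band under the fold of 0.5 with both, and Gapdh lies left of 0 with both.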

How the data were processed

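The authors deposited raw UMI counts, whole numbers per gene, antibody tag and hashtag, in 1 matrix for 1 capture, per the file headers the output of Cell Ranger 7.0.0. GRCm39 (mm39) is the build in the submitters' processing notes, while the settings for calling cells were not stated. Of the feature IDs, 22404 of 22548 matched the gene name table, and Aldoa was read from the ID that held UMIs.

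Cells needed at least 80% of hashtag UMIs from 1 hashtag, 1000 or more mRNA UMIs, and no more than 10% of UMIs from mitochondrial genes. Doublets of cells of the same population were not removed. UMIs were summed per population and scaled to 1000000 mRNA UMIs (CPM), and log2 ratios had 0.5 UMI added to each sum. Intervals are exact, Poisson for levels and conditional binomial for ratios, at 95%, and cover counting error only. With 1 sample a group nothing was tested between groups. The ratio steps were tested on simulated data. Alternatives used HTODemux in Seurat 5.3.0, edgeR 4.0.16 (TMM) and DESeq2 1.42.0 size factors. All 33 genes are named, and the text turns on those past the fold in both strata of a reporter or in 4 of 4 populations for a tag. Other genes were named from 2 pathway and 2 comparison lists by the same rule. Members and lists were chosen with earlier results of these data known. Genes with small ratios, and genes named for an alternative or a sign, were singled out after their values had been seen.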

Additional observations from a re-analysis of the deposited data

Results flagged for a closer look

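The RFP comparison ran in opposite directions in the BFP states for 2 genes, with counting intervals on opposite sides of 0, and the difference between states was not tested. Eno1 had a log2 ratio of RFP+ over RFP- cells of -0.29 (-0.50 to -0.10) within BFP+ and 0.20 (0.01 to 0.39) within BFP-. Mif had -0.11 (-0.22 to -0.01) within BFP+ and 0.66 (0.56 to 0.77) within BFP-. Without marker barcodes Eno1 stood at -0.13 and 0.21, and Mif at 0.15 and 0.66, so that the opposite signs of Mif did not stay.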

How the results depend on the processing

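No paired analysis was possible because 1 pool gave 1 sample for every population. The medians over the genes tested (29 or 30 in a reporter comparison, 30 or 31 for a tag) moved by less than the median counting error of 1 gene (the width of its interval in 1 direction) under all alternatives run for the 4 reporter comparisons and the 4 tags, although the median of the BFP comparison within RFP- stood at 0.04 with TMM scaling in place of -0.04. For tags this error was the mean width over the 4 populations divided by 2. The error of 1 gene is a wide limit for a median over many genes, so staying under it shows little. TMM scaling moved the median of all genes in the BFP comparison within RFP+ from -0.09 to 0.01. For the BFP comparison, the count of genes past the fold in both RFP states, 1, became 2 without cells with proliferation genes (Hk2 and P4ha1), 0 with TMM scaling, 0 with DESeq2 size factors and 3 with no minimum UMI count. The count of 0 for the RFP comparison became 1 with at least 5000 UMIs (Hk2), 2 without the 5% of cells with most UMIs (Hk2 and Ddit4), 1 without cells with proliferation genes (Ddit4) and 1 without these and marker barcodes. For CD11b, the count of 2 became 0 with HTODemux singlets, 4 at no more than 5% mitochondrial UMIs, 1 with equal weight per cell, 1 without the deepest 5% of cells, 1 without marker barcodes (Ddit4), 4 with tags as centred log ratios and 0 with tag terciles within 5 strata of depth. For CD8a, 0 became 1 with centred log ratios (Slc2a3). For CD172a, 2 became 1 without marker barcodes and 1 without these and cells with proliferation genes. For CD301b, 2 became 1 without marker barcodes, 0 without these and cells with proliferation genes, 1 with centred log ratios, 1 with a median split and 0 within 5 strata of depth. Pdk1 by CD301b turned from -0.88 to 0.14 with centred log ratios. The glycolysis median by HIF targets turned from -0.17 to 0.31 with 6 targets, a set chosen after seeing the data, as were the strata of depth, the splits by 1 target and the joint removal of both kinds of cells. The causes were not tested, beyond fewer or other cells entering. Depth limits genes such as Pfkm, with 39 UMIs.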
